A study of Mus musculus with 12 samples.

Results

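The cytosolic ribosomal protein genes code for the protein parts of the cytosolic ribosome, the machine that translates messenger RNA in the cytoplasm. They were taken as the genes whose symbol has the form Rpl or Rps followed by a number, together with Rplp0, Rplp1, Rplp2 and Rpsa. Symbols marked -ps, for pseudogene, and the Rps6k kinases were left out, and only probe sets naming a single gene were used. The rule found 67 genes on 108 probe sets, of 21314 genes on the array with a single symbol and 31693 probe sets in all. Of the 67, 23 belong to the small 40S subunit, 35 to the large 60S subunit, and 9 are related copies of such genes (Rpl3l, Rpl6l, Rpl7l1, Rpl10l, Rpl22l1, Rpl32l, Rpl39l, Rps4l and Rps27l). RefSeq lists 65 of the 67 as protein coding, Rpl6l as a pseudogene and Rps4l as a transcribed pseudogene. A further 13 ribosomal protein genes, Rpl10, Rpl13a and Rpl24 among them, were named only on probe sets shared with other genes and were not members. No filter on low values was applied, so all 67 were tested.

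Whole colon was taken from wild-type mice and from mice without Parp1 (Parp1-/-), whose product is a nuclear enzyme that builds poly(ADP-ribose) when DNA breaks. The mice were 6 to 8 weeks old and drank either plain water or 4% dextran sulfate sodium (DSS), an agent that injures the colon lining, for 7 days. Each of the 4 groups had 3 mice, and each mouse gave 1 Affymetrix array. The sources used here do not give strain, sex or the way Parp1 was disrupted.

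Ribosomal proteins are needed in nearly equal numbers, and their messenger RNAs are among the most abundant of dividing cells such as those of the colon crypts. Most of these messenger RNAs begin with a run of pyrimidines (C and T), called a 5′ terminal oligopyrimidine (TOP) tract, through which mTOR signalling controls their translation. Some ribosomal proteins also act outside the ribosome, for example Rpl5 and Rpl11, which bind Mdm2 when ribosome assembly is disturbed.

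The TOP tract is shown here at the starts of 8 genes on which the results turn, all with a long pyrimidine run, which most member starts lacked. The first 5 were higher in Parp1-/- than in wild-type colon on water and the last 3 were lower, so they were picked after their values were seen. Sequences are from RefSeq, build GRCm38.p6, run 5′ to 3′ on the strand of the gene, and cover 40 bases before the annotated start and 20 bases from it. Capitals mark the longest run of C and T from 10 bases before to 15 bases after the start. In Rpl27a the run goes on past that stretch. Rpl38 is at chr11:114668540-114668599 on the plus strand, Rpl15 at chr14:18270967-18271026 on the minus strand, Rpl14 at chr9:120571477-120571536 on the plus strand and Rps6 at chr4:86857348-86857407 on the minus strand. Rpl28 is at chr7:4792925-4792984, plus, Rpl27a at chr7:109519155-109519214, plus, Rps27 at chr3:90213629-90213688, minus, and Rplp2 at chr7:141447611-141447670, plus.
Rpl38: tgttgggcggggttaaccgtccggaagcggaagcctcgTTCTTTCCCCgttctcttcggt
Rpl15: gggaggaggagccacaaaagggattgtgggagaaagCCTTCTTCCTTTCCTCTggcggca
Rpl14: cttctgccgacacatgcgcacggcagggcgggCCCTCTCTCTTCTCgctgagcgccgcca
Rps6: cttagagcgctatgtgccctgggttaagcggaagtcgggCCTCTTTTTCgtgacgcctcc
Rpl28: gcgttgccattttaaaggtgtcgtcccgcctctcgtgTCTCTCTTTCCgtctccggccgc
Rpl27a: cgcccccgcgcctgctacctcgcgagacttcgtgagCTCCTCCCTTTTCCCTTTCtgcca
Rps27: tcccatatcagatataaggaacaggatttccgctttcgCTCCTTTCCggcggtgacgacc
Rplp2: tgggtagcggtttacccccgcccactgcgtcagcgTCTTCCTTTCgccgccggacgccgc

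The runs were 10 bases long in Rpl38, 17 in Rpl15, 14 in Rpl14, 10 in Rps6 and 11 in Rpl28. They were 19 bases in Rpl27a, 9 in Rps27 and 10 in Rplp2, so long runs stood at the starts of genes of both directions. A start was matched for 52 members, with 61 starts in all. A run of at least 7 pyrimidines was present at 25 of the 61 (41.0%), against 15.2% of all 32851 starts in the table. The word CTTTC, or the word CTTCC, or the word CTCTT, or the word CTTTT (overlaps allowed) lay between 10 bases before and 15 bases after the start, on the gene's strand, at 23 of the 61 (37.7%), against 12.5% of all starts. On the opposite strand the words were present at 11.5% of the members' starts and 12.9% of all. By the direction of the difference between genotypes on water, the words were present at 7 of 22 starts of members called higher, at 5 of 7 of members called lower and at 11 of 32 of the others. The word CCGGAAG, which ETS factors bind, was found on either strand from 250 bases before to 50 bases after the start at 37.7% of the members' starts and 8.86% of all. TATAAA was found there at 9.84% against 13.6%.

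All values below are centred log2 values. For each probe set the median over the 12 arrays was set to 0 by the authors, so a value says how far an array lies above or below the typical array for that gene, and gives no ranking of genes by level. Base 2, and larger values for more RNA, were assumed. Parp1 itself was read by a single probe set. The wild-type mice on water stood at -0.41, 1.15 and 0.53, those on DSS at 0.01, 0.51 and 0.77, and the 6 Parp1-/- mice between -0.22 and 0.03. The genotypes overlapped and differed on water by -0.47 ± 0.33 (difference ± standard error), limma adjusted p = 0.273. Whether the probes lie in the disrupted part of the gene is not given, so this is a weak check of the labels.

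On 4 arrays, called wide here, the members were spread far more than on the other 8, called narrow. The wide ones were the 3 wild-type water arrays and wild-type DSS 1. The SD over the 67 members was 0.96, 0.83 and 0.97 on the 3 wild-type water arrays, 0.77 on the wild-type DSS 1 array and 0.15 to 0.32 on the narrow arrays. All genes were spread in the same way. Over all 21314 the SD was 0.25 to 0.38 on the narrow arrays, and 0.88, 0.67, 0.73 and 0.74 on the wide ones. The median of 15 housekeeping genes was also low there, at -1.71, -1.13, -1.17 and -0.92, and that of 12 epithelial genes was -1.70, -1.82, -1.74 and -0.45. The median of 1042 smell receptor genes was high there instead, at 0.41, 0.38, 0.39 and 0.38, against -0.12 to 0.05 on the narrow arrays. Apart from this, 10 smooth muscle genes had medians of 3.71, 3.40 and 3.47 in Parp1-/- water 2, Parp1-/- water 3 and Parp1-/- DSS 1 and of -0.57 to 0.04 elsewhere. Every comparison with wild-type water therefore sets arrays of the wide kind against others. In whole colon, fewer cells of a type and less RNA per cell cannot be told apart.

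**Figure D1:**
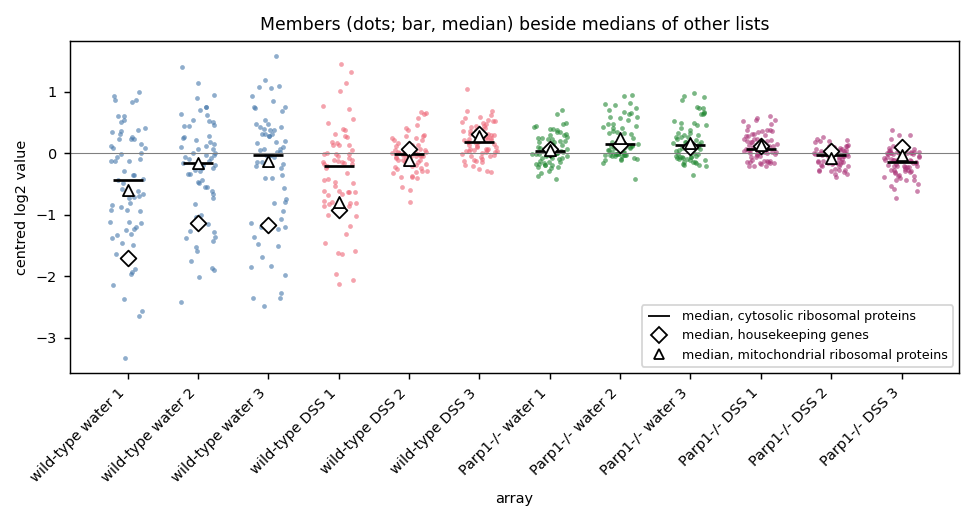
The vertical axis is the centred log2 value and the horizontal axis the 12 arrays. Dots are the 67 members, bars their median, diamonds the median of 15 housekeeping genes and triangles that of 71 mitochondrial ribosomal protein genes. The members reach from -3.33 to 1.58 on the wild-type water arrays and stay between -0.79 and 1.05 on the 8 arrays other than those and wild-type DSS 1.

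The members did not move as a block on the wide arrays. On all 3 wild-type water arrays 22 members lay below the whole range of the 8 narrow arrays, which is 32.8% of members against 19.4% of all genes, and 9 lay above it, which is 13.4% against 19.8%. Wild-type DSS 1 shared the low side for 17 of the 22 (25.4% of members against 16.4% of all genes). These were the 60S genes Rpl8, Rpl10a, Rpl14, Rpl15, Rpl19, Rpl21, Rpl22, Rpl29, Rpl32 and Rpl38, the 40S genes Rps3, Rps4x, Rps6 and Rpsa, and the copies Rpl6l, Rpl7l1 and Rps27l. The other 5 of the 22 did not: Rpl23a, Rpl28, Rpl41 and Rps26 were within the range of the 8 in wild-type DSS 1, and Rpl4 was above it. Of the 9 high members, Rpl27a, Rpl30 and Rpl34 turned below the range in wild-type DSS 1, Rps27 was within it, and Rpl3l, Rpl10l, Rplp2, Rps16 and Rps20 stayed above it.

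**Figure D2:**
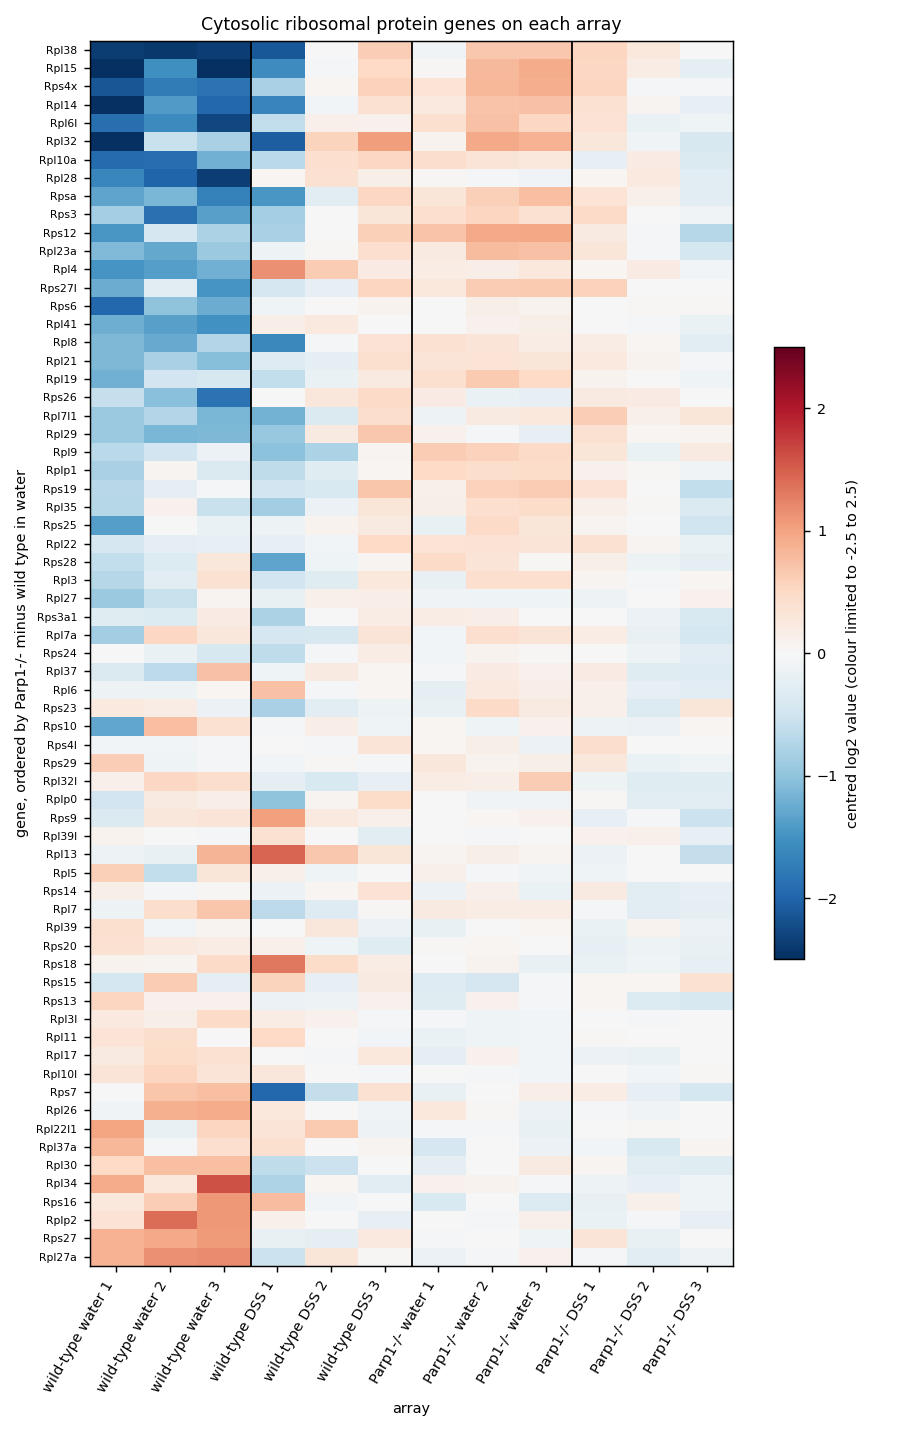
Rows are the 67 members, ordered by the difference between Parp1-/- and wild type on water, and columns are the 12 arrays. Colour is the centred log2 value, with red for higher. The strong colours stand in the 3 wild-type water arrays and wild-type DSS 1, blue in the upper rows and red in the lower ones, while the other 8 arrays are pale.

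The first comparison asked how wild-type colon on DSS differed from wild-type colon on water. In wild-type mice, 14 ribosomal protein genes were higher on DSS, led by Rpl28 and Rpl4 of the large subunit, and 6 were lower, led by Rpl34 and Rpl27a. The 14 are 20.9% of members, against 8.89% of all genes called higher by limma at a Benjamini-Hochberg adjusted p under 0.05, and the 6 are 8.96% against 4.16%. Over all 67 the median difference was 0.15, with 40 above 0, and over all genes it was -0.05. By role, the 23 genes of the 40S subunit gave 4 higher and 1 lower, the 35 of the 60S subunit gave 9 and 4, and 1 of the 9 copies went each way. The groups did not overlap for 12 members higher on DSS (11.4% of all genes) and for 8 lower (12.2% of all genes).

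Rpl28, a 60S protein, stood at -1.64, -2.01 and -2.36 in the wild-type water mice and at 0.06, 0.37 and 0.15 in the wild-type DSS mice. Every DSS array was above every water array, wild-type DSS 1 with the others, and the difference was 2.19 ± 0.20 (limma adjusted p = 9.09e-05). Rpl4, a 60S core protein whose long loop lines the exit tunnel, stood at -1.48, -1.38 and -1.20 on water and 1.15, 0.64 and 0.21 on DSS. It rose by 2.02 ± 0.21 (limma adjusted p = 0.000194), and in this mean wild-type DSS 1 was the highest of all arrays. Its 2 probe sets disagreed there: wild-type DSS 1 to 3 stood at 3.52, 1.74 and 0.56 on one and at -1.23, -0.46 and -0.13 on the other. Rpl41, the shortest ribosomal protein, went from -1.23, -1.36 and -1.51 to 0.17, 0.25 and -0.02, a rise of 1.501 ± 0.143 (limma adjusted p = 0.000109) without overlap. Rps6, the 40S protein phosphorylated by S6 kinase downstream of mTOR, went from -1.96, -0.997 and -1.23 to -0.10, 0.01 and 0.10. Its groups did not overlap and it rose by 1.40 ± 0.21 (limma adjusted p = 0.00196).

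For a second set of the 14, wild-type DSS 1 lay well below the other DSS mice. Rpl38, a 60S protein known in mouse embryos for the translation of Hox messenger RNAs, stood at -2.37, -2.42 and -2.35 on water and at -2.12, -0.01 and 0.62 on DSS. The mean rose by 1.88 ± 0.54 (limma adjusted p = 0.0413), but wild-type DSS 1 lay close to the water arrays. Rpl15, which is needed for assembly of the large subunit, stood at -2.56, -1.52 and -2.49 on water and at -1.58, -0.04 and 0.50 on DSS. It rose by 1.82 ± 0.49 (limma adjusted p = 0.0319), and wild-type DSS 1 lay inside the water group. Rpl14 and the 40S entry-channel protein Rps3 overlapped in the same way and were called as well (1.57 ± 0.46 and 1.18 ± 0.32). Rps4x of the 40S subunit, at -2.14, -1.76 and -1.84 on water and -0.82, 0.05 and 0.57 on DSS, did not overlap and rose by 1.85 ± 0.32 (limma adjusted p = 0.00378). Without wild-type DSS 1 the counts were 22 higher and 9 lower, and all 20 members called with it were called again. Of all genes, 6865 were called in either direction without that array.

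Of the 6 members that fell on DSS, Rpl34 changed most. Rpl27a, a 60S protein, stood at 0.86, 1.14 and 1.19 on water and at -0.54, 0.30 and 0.04 on DSS, a fall without overlap of -1.13 ± 0.21 (limma adjusted p = 0.00535). Rps27, a zinc-finger protein of the 40S subunit, stood at 0.87, 0.94 and 1.07 on water and at -0.18, -0.22 and 0.25 on DSS, and changed by -1.01 ± 0.18 (limma adjusted p = 0.00403). Its groups did not overlap and the water mice were close together. Rplp2, a protein of the P-stalk that recruits the elongation factors, stood at 0.36, 1.40 and 1.09 on water and at 0.13, -0.01 and -0.20 on DSS, a change of -0.97 ± 0.23 (limma adjusted p = 0.019). Rpl34 (-1.26 ± 0.30), Rpl30 (-1.06 ± 0.21) and the copy Rpl32l (-0.64 ± 0.17) fell as well, none with overlap. The calls depended on the scaling and on the arrays in the fit. With quantile normalization between arrays 1 member was called higher and 0 lower, where 207 of all genes were called. With only the 6 wild-type arrays in the fit, on unchanged values, 7 and 0 were called, where 641 of all genes were.

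**Figure D3:**
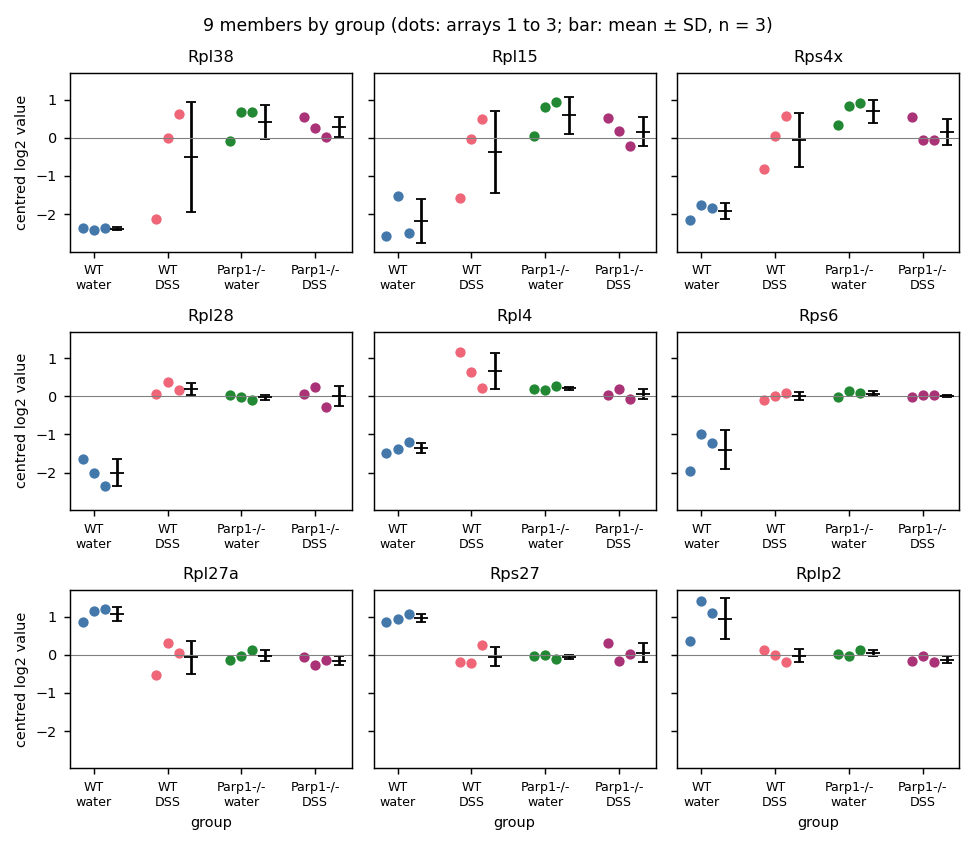
The vertical axis is the centred log2 value of 9 members, dots are arrays 1 to 3 of each group from left to right, and the bar beside them is the mean ± SD (n = 3). The wild-type water mice are apart from the Parp1-/- mice in all 9 panels, below them for Rpl38, Rpl15, Rps4x, Rpl28, Rpl4 and Rps6 and above for Rpl27a, Rps27 and Rplp2. Wild-type DSS 1, the left dot of its group, is near the water mice for Rpl38 and Rpl15 and near the DSS mice for Rpl28, Rpl4 and Rps6.

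The second comparison, Parp1-/- colon on DSS against Parp1-/- colon on water, used 6 of the 8 narrow arrays. Here the members were slightly lower on DSS without any single gene passing the test. The median difference was -0.17, with 52 of 67 below 0, against 0.01 over all genes. Limma with Benjamini-Hochberg adjustment called 0 members in either direction, at a background of 0.00938% of genes called higher and 0% called lower, and the smallest adjusted p of a member was 0.999956. At an unadjusted p under 0.05 there were 3 members, Rps12, Rpl32l and Rpl23a, of 609 genes. Without overlap between the groups, 15 members were lower on DSS (4.7% of all genes) and 3 were higher (7.82% of all genes). Of all settings run, array weights alone called members here, with 9 lower, where 1457 of all genes were called in either direction. A fit of the 8 narrow arrays called 0 members.

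Rps12, a 40S protein, had the largest difference. It stood at 0.71, 0.94 and 0.97 on water and at 0.22, -0.02 and -0.72 on DSS, and the groups did not overlap. The difference was -1.05 ± 0.37. The copy Rpl32l was at 0.19, 0.18 and 0.63 on water and at -0.12, -0.29 and -0.30 on DSS, a difference of -0.57 ± 0.17. Rplp1, the partner of Rplp2 in the P-stalk, was at 0.50, 0.45 and 0.46 and then at 0.11, 0.03 and -0.08, a difference of -0.45 ± 0.23. Its water mice were close together and all 3 DSS mice were below them. Rpl9 (-0.44 ± 0.27), Rpl10a (-0.46 ± 0.31), Rpl19 (-0.52 ± 0.25) and the copy Rpl6l (-0.52 ± 0.25) also separated without a call. The highest was Rps15, a protein of the 40S head, at -0.32, -0.41 and -0.05 on water and 0.05, 0.05 and 0.38 on DSS, a difference of 0.42 ± 0.28. Within the DSS group the members' median was 0.08 in mouse 1, -0.02 in mouse 2 and -0.14 in mouse 3. Parp1-/- DSS 1, the highest, is the mouse of this group with high smooth muscle genes, and Parp1-/- water 2 and 3, at 0.15 and 0.13 against 0.03 in water 1, have them too. The part of these in the difference was not tested. Without those 3 arrays the members' median difference was -0.13, from 1 water mouse and 2 DSS mice.

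**Figure D4:**
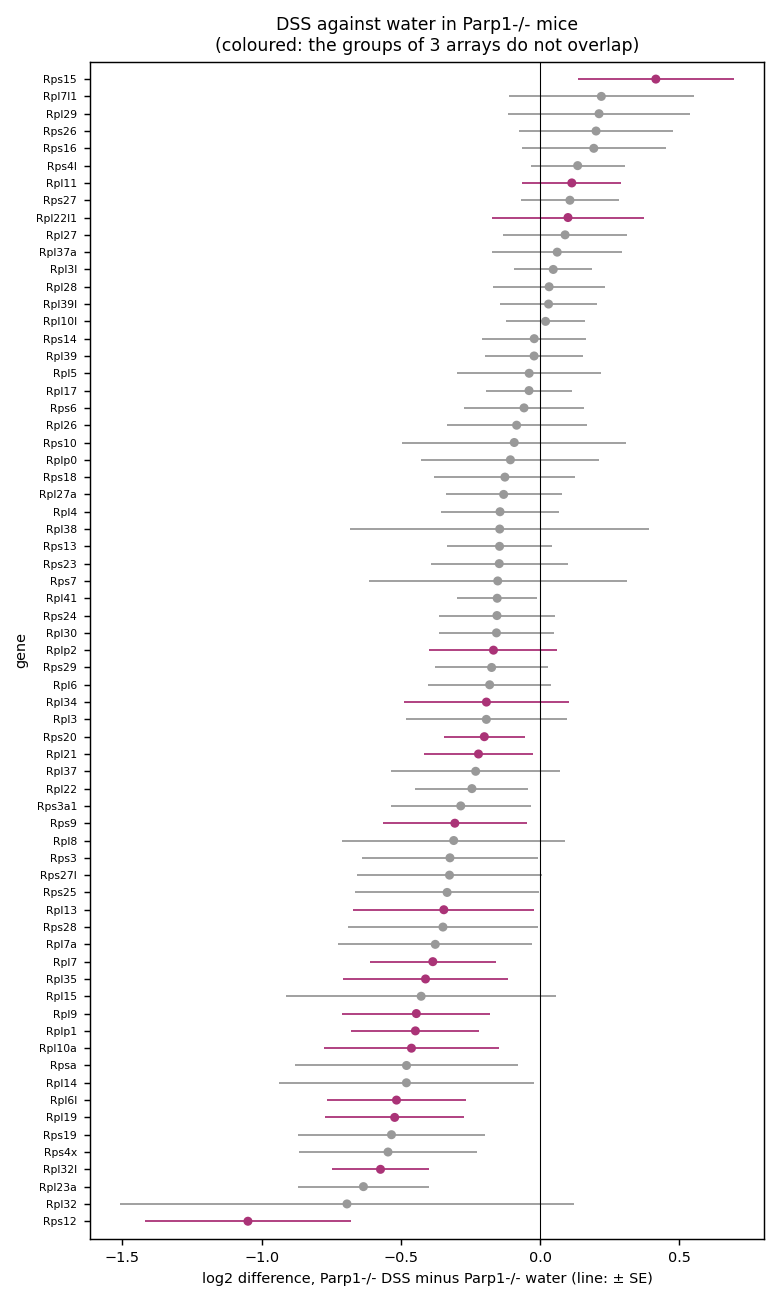
The horizontal axis is the log2 difference between Parp1-/- DSS and Parp1-/- water, and each row is 1 of the 67 members. Lines are standard errors from the fit of all 12 arrays, wild-type mice included. Coloured points are the 18 members whose groups of 3 arrays do not overlap, 15 to the left of 0 and 3 to the right. Rps12 is farthest left at -1.05 and Rps15 farthest right at 0.42.

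The third comparison asked how the genotypes differed on plain water. Parp1-/- colon had more RNA than wild-type colon for 24 ribosomal protein genes and less for 7. Limma at an adjusted p under 0.05 called 35.8% of members higher against 17.9% of all genes, and 10.4% lower against 13.7%. The median difference of the members was 0.21, with 40 above 0, and that of all genes was -0.07. By role, the 23 genes of the 40S subunit gave 6 higher and 2 lower, the 35 of the 60S subunit gave 15 and 4, and the 9 copies gave 3 and 1. The groups did not overlap for 27 members higher in Parp1-/- (26.2% of all genes) and for 12 lower (29.2% of all genes). This comparison and the first share the wild-type water arrays, so they are not independent. Values of both are given side by side below for that reason.

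For Rpl38, Rpl15, Rps4x and Rpl28 every Parp1-/- water mouse stood above every wild-type water mouse. Rpl38 stood at -0.09, 0.68 and 0.66 in Parp1-/- water, above all wild-type water mice by 2.80 ± 0.54 (limma adjusted p = 0.00414). The wild-type DSS mice had been higher than the same water mice by 1.88. Rpl15 stood at 0.04, 0.80 and 0.93, a difference of 2.78 ± 0.49 (limma adjusted p = 0.00267) beside 1.82 on DSS. Rps4x stood at 0.34, 0.82 and 0.91, a difference of 2.60 ± 0.32 (limma adjusted p = 0.000376) beside 1.85. Rpl28 stood at 0.02, -0.02 and -0.09, and differed by 1.97 ± 0.20 (limma adjusted p = 0.000153) beside 2.19. For Rpl28 the wild-type water mice stood alone, and the other 9 mice lay between -0.28 and 0.37.

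Among genes with known roles beyond the core, Rpsa, which is also the laminin receptor precursor, stood at -1.32, -1.14 and -1.69 in wild-type water and at 0.30, 0.59 and 0.75 in Parp1-/- water. It was higher by 1.93 ± 0.40 (limma adjusted p = 0.00601). Rps3, which also has a role in DNA repair, stood at -0.84, -1.86 and -1.37 against 0.43, 0.54 and 0.38, a difference of 1.80 ± 0.32 (limma adjusted p = 0.00269). Neither gene overlapped between the genotypes. Rps6 was higher by 1.47 ± 0.21 (limma adjusted p = 0.00102), with the Parp1-/- mice at -0.01, 0.14 and 0.08. Rps12 stood at -1.46, -0.43 and -0.79 in wild-type water and was higher in Parp1-/- by 1.77 ± 0.37 (limma adjusted p = 0.00624). The 5S particle proteins Rpl5 (-0.09 ± 0.26) and Rpl11 (-0.37 ± 0.18), Rps19, mutated in human Diamond-Blackfan anaemia, (0.77 ± 0.34) and Rps14 (-0.11 ± 0.19) were not called.

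By their gene means, the 3 P-stalk proteins did not move together. Rplp1 stood at -0.81, 0.08 and -0.36 in wild-type water and was higher in Parp1-/- by 0.83 ± 0.23 (limma adjusted p = 0.0205). Rplp2 differed by -0.91 ± 0.23 (limma adjusted p = 0.0146) on the only probe set naming it alone. On the Rplp2 probe set shared with Snora52, wild-type water stood at -2.02, -1.10 and -1.66 and Parp1-/- water at 0.50, 0.69 and 0.67. Rplp0, which anchors the stalk to the 60S subunit, differed by -0.03 ± 0.32 and was not called. The other members called lower were Rpl27a (-1.09 ± 0.21), Rps27 (-1.02 ± 0.18), Rps16 (-0.90 ± 0.26), Rpl34 (-0.88 ± 0.30), Rpl30 (-0.68 ± 0.21) and the copy Rpl10l (-0.43 ± 0.14). Rpl27a had Parp1-/- values of -0.15, -0.04 and 0.12, and Rps27 of -0.04, -0.01 and -0.12, all below the wild-type water mice.

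Copies and common forms were compared pair by pair. Rps27l, a p53 target, was higher in Parp1-/- on water by 1.52 ± 0.33 (limma adjusted p = 0.00779), while its common form Rps27 was lower by the value above. That value is from the only probe set naming Rps27 alone. On the probe set shared with Rps27rt, wild-type water stood at -1.59, -1.54 and -0.89 and Parp1-/- water at 0.46, 0.87 and 0.53. Rpl7l1 was higher by 1.06 ± 0.33 (limma adjusted p = 0.0333) and Rpl7 was not called (-0.13 ± 0.23). Rpl6l, which RefSeq lists as a pseudogene, was higher by 2.46 ± 0.25 (limma adjusted p = 0.000151) and Rpl6 was not called (0.13 ± 0.22). Rpl22 was higher by 0.63 ± 0.20 (limma adjusted p = 0.036) and its copy Rpl22l1 was not called (-0.54 ± 0.27). Neither form was called for Rpl3 (0.42 ± 0.29) and Rpl3l (-0.35 ± 0.14), nor for Rpl39 (-0.18 ± 0.18) and Rpl39l (-0.04 ± 0.18). Rps4l, a transcribed pseudogene, differed by 0.07 ± 0.17. The difference between a copy and its common form was not tested, and near-identical copies can share probes.

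Rpl32 had the widest spread of all members within each wild-type group, with -3.33, -0.55 and -0.81 in wild-type water against 0.08, 0.94 and 0.86 in Parp1-/- water. Its groups did not overlap, but it was not called (2.19 ± 0.81, limma adjusted p = 0.0597). Without Parp1-/- water 2, Parp1-/- water 3 and Parp1-/- DSS 1, the arrays with high smooth muscle genes, 2 members were called higher, Rpl28 and Rpl6l, and 0 lower. That fit has a single Parp1-/- water mouse, which is assumed to vary like the other groups. With the arrays' spreads set equal, 0 members were called lower. The wide spread and the low housekeeping and epithelial genes of the wild-type water arrays go with genotype here, and the 2 cannot be told apart.

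The fourth comparison was Parp1-/- against wild type on DSS. The genotypes did not separate for the members as a group: the median difference was -0.01, with 33 above 0 and 34 below, and 0.00 over all genes. Limma with Benjamini-Hochberg adjustment called 0 members, at a background of 0% in either direction, and 0 also with the 8 narrow arrays alone. Unadjusted p under 0.05 was reached by 5 members and 593 genes. Array weights called 6 members higher and 11 lower, where 6184 of all 21314 genes were called in either direction. The groups did not overlap for 4 members lower in Parp1-/- (4.52% of all genes) and 0 higher (2.04%). The 4 were Rpl13, Rps18, Rps9 and Rpl4. Rpl13, a 60S protein, stood at 1.46, 0.68 and 0.31 in wild-type DSS and at -0.15, 0.00 and -0.59 in Parp1-/- DSS. The difference was -1.06 ± 0.33, limma adjusted p = 0.872, and the highest of the 6 values was wild-type DSS 1. Rps18 stood at 1.31, 0.46 and 0.18 against -0.16, -0.10 and -0.21 (difference -0.81 ± 0.25), again with wild-type DSS 1 on top. Rps9 differed by -0.73 ± 0.26 and Rpl4 by -0.61 ± 0.21. In all 4, 1 probe set held the high value of wild-type DSS 1: it was 3.38 for Rpl13, 3.04 for Rps18, 2.89 for Rps9 and 3.52 for Rpl4. The other probe sets of these genes stood in that mouse at -0.47 for Rpl13, 0.48 and 0.42 for Rps18, -0.86 for Rps9 and -1.23 for Rpl4. Rpl38 had the largest positive difference of all members, 0.78 ± 0.54, and was not called. Rps6 differed by 0.01 ± 0.21, Rpsa by 0.46 ± 0.40 and Rps19 by -0.04 ± 0.34, none of them called.

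The fifth comparison tested whether the response to DSS differed between the genotypes. The response of 8 members was lower in Parp1-/- mice than in wild-type mice and that of 1 was higher, by limma at an adjusted p under 0.05. These are 11.9% and 1.49% of the members, against 2.33% and 0.216% of all genes, and the members' median difference of responses was -0.30, against 0.05 over all genes. The 8 were Rps4x, Rps6 and the 60S genes Rpl4, Rpl10a, Rpl23a, Rpl28 and Rpl41, with the copy Rpl6l, and the 1 was Rps27. For Rpl41 DSS minus water was 1.501 in wild type and -0.15 in Parp1-/-, a difference of -1.65 ± 0.20 (limma adjusted p = 0.00266). For Rpl28 it was 2.19 and 0.03, a difference of -2.16 ± 0.29 (limma adjusted p = 0.00392). For Rpl4 it was 2.02 and -0.14, a difference of -2.17 ± 0.30 (limma adjusted p = 0.00471). In the gene means of these 3, the wild-type water mice are low and the other 9 mice are not. For Rpl4, 1 probe set has wild-type DSS 1 low as well, at -1.23, and the other does not set the wild-type water mice apart. For Rpl41, 1 of 5 probe sets has the wild-type water mice high, not low. Rps27 had a response of -1.01 in wild type and 0.11 in Parp1-/-, a difference of 1.11 ± 0.25 (limma adjusted p = 0.0405). The Rps27 probe set shared with Rps27rt had the wild-type water mice low, at -1.59, -1.54 and -0.89. Rpl38 and Rpl15, with larger differences on water, were not called here (limma adjusted p = 0.2 for Rpl38), and the SDs of their wild-type DSS mice were 1.43 and 1.08. With quantile normalization, and with the spreads set equal, 0 members and 0 of all genes were called.

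Probe sets of 1 gene often disagreed, which bears on the gene means. Of the 67 members 42 had 1 probe set and 25 had several, and 24 of these had several distinct profiles. Between Parp1-/- and wild type on water, 16 of the 24 had a gap of over 1 between their highest and lowest probe set, and 16 had probe sets of opposite sign, with a median gap of 1.58. Rpl4 is an example, with 3.09 ± 0.27 on one probe set (limma adjusted p = 6.08e-05 over probe sets) and 0.03 ± 0.58 on the other. For Rpl41, 4 probe sets gave 1.82 to 2.41 and the fifth gave -0.81 ± 0.22. Rpl41, Rps24 and Rps3a1 had probe sets called in both directions. For Rps3a1 they gave 1.30 ± 0.44 and -0.77 ± 0.15, and its gene mean was not called. Rps12 had 8 probe sets with 3 distinct profiles, since 6 held identical values, all higher at 1.57 to 2.43. Rpl38, Rpl15, Rpl14, Rps4x, Rpl28, Rps6, Rpl27a, Rps27 and Rplp2 had a single probe set each that named them alone. Probe sets shared with other genes read some of them otherwise. On a probe set naming Rpl27a with Gm13981, wild-type water stood at -1.41, -1.74 and -1.03, and Parp1-/- water at 0.49, 0.27 and 0.39. Shared probe sets of Rps27, Rplp2, Rps16, Rpl30 and Rpl34 also had wild-type water below Parp1-/- water. On that of Rpl28 with Gm10051, wild-type water was high, at 1.47, 0.39 and 0.80. On those of Rpl15 and Rps6 the groups overlapped. In RefSeq, named pseudogenes exist for 49 of the 67 members, among them 18 of the 24 called higher and 6 of the 7 called lower, and a probe set can read such copies.

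**Figure D5:**
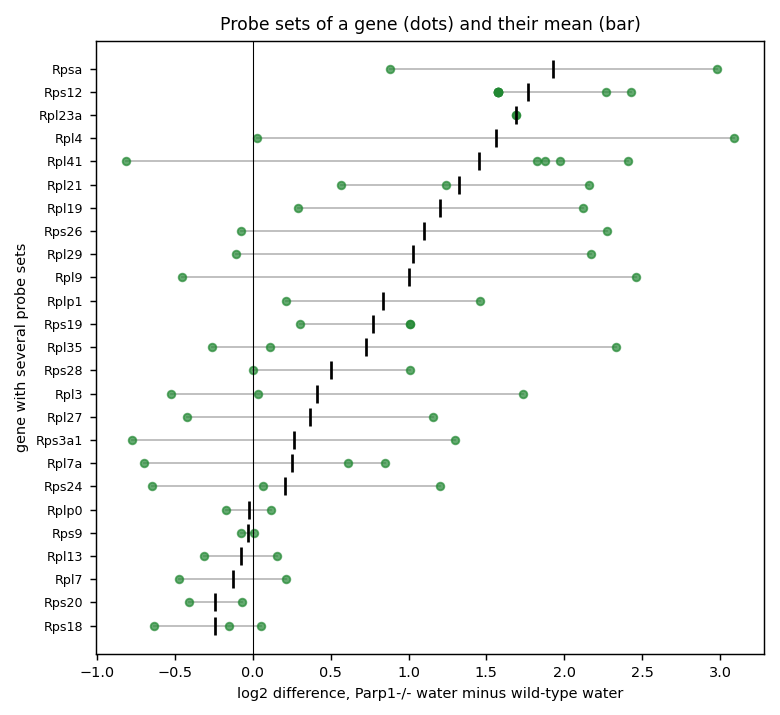
The horizontal axis is the log2 difference between Parp1-/- water and wild-type water, and rows are the 25 members with several probe sets. Dots are probe sets and the black bar is their mean, the value used for the gene. Rpl41 reaches from -0.81 to 2.41 and Rpl4 from 0.03 to 3.09, while the probe sets of Rps12 lie between 1.57 and 2.43.

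Genes that work with the ribosome were read beside the members, from lists chosen with earlier results of these data known. Between the genotypes on water the 8 elongation factor genes gave 5 higher and 0 lower, with a median of 1.24. Over all genes 17.9% were called higher and 13.7% lower in this comparison, the background for each list here. Eef2, which moves the ribosome along, was higher by 2.10 ± 0.36 (limma adjusted p = 0.00237) and Eef1a1, which brings in aminoacyl-tRNA, by 1.25 ± 0.20 (limma adjusted p = 0.00154). The 25 initiation factor genes gave 16 and 0 (median 1.14), led by Eif3b at 3.07 ± 0.53 (limma adjusted p = 0.00254). The 40 ribosome assembly genes gave 11 and 0 (median 0.51), led by Rrp1 at 1.71 ± 0.33 (limma adjusted p = 0.00402). The 12 genes of RNA polymerase I and its factors, which make ribosomal RNA, gave 6 and 0 (median 0.64), with the factor Ubtf at 1.51 ± 0.20 (limma adjusted p = 0.000577).

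The ribosomal proteins of mitochondria gave 22 higher and 1 lower of 71 (median 0.58), led by Mrpl16 at 2.70 ± 0.39 (limma adjusted p = 0.00102). The TOP messenger RNAs other than ribosomal proteins gave 10 higher and 0 lower of 14 (median 1.06), and the cytosolic tRNA synthetases 9 and 0 of 17 (median 1.17). Fau, which encodes the 40S protein eS30 fused to a ubiquitin-like protein and lies outside the naming rule, was higher by 0.89 ± 0.27 (limma adjusted p = 0.0288). The members gave 24 higher and 7 lower with a median of 0.21, and the difference between the lists was not tested. In wild-type mice, DSS against water gave 3 higher of 8 elongation, 7 of 25 initiation, 3 of 40 assembly and 2 of 12 RNA polymerase I genes, and 0 lower in all 4, where 8.89% of all genes were called higher. The housekeeping list gave 8 higher of 15 there and the epithelial list 9 of 12. Between the genotypes on water these 2 lists gave 11 higher and 0 lower each. In Parp1-/- mice, DSS against water gave 0 calls in each of these lists.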

How the data were processed

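Per the labels' protocols, whole-colon RNA of 12 separate mice was biotin-labelled for Affymetrix arrays. Groups came from the genotype and treatment in the labels, and replicate numbers only name the mice. The deposited table holds log2 values of 31693 probe sets, already centred by the authors so that the median of every probe set is 0 to within 5e-07. Values ran from -4.83 to 5.47. The sources used here do not give the software, normalization, log base or direction. The centring follows from the values, the log base and the direction stay unknown, and base 2 and a larger value meaning more RNA were assumed. The median of each column was, for mice 1 to 3 of a group, 0.0576, 0.0999 and 0.0946 (wild-type water), 0.0784, 0.000299 and -0.00104 (wild-type DSS), -0.00315, -0.0310 and -0.0438 (Parp1-/- water) and 0.000797, -0.0204 and -0.00781 (Parp1-/- DSS). Without scanner files the signal over background is not known, and the number of arrays limits the precision. The calls also depended on the scaling and on the probe sets averaged. The log2(value + 16) of the plan was not taken, as the table already held logs.

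Probe sets were named from the platform annotation in GEO, where 22586 of them had 1 gene symbol, 1756 several and 7351 none. All 67 members matched a RefSeq gene of GRCm38.p6. The probe sets of a gene were averaged, and limma 3.58.1 in R 4.3.3 (lmFit, contrasts.fit, eBayes) was fitted to all 21314 genes with the 4 group means, with Benjamini-Hochberg adjustment over all genes and a call at an adjusted p under 0.05. Errors of differences are standard errors of that fit. The scripts were tested on simulated data. The members and lists were chosen with earlier results of these data known. Named members were the 8 called members of largest change in each direction, or the 5 with the lowest p if under 5 members were called, the highest and the lowest, and the P-stalk, 5S particle, Rps6, Rps19, Rpl38, Rpsa, Rps3, Rps14 and paralog genes whatever their values. Others named by a feature of their values, such as Rpl32 and the probe set examples, were chosen after their values were seen. Alternatives were quantile normalization, array weights, equal array medians, eBayes with its trend and robust settings, only the compared arrays, leaving out each array, a threshold of 0.01, a 1.5-fold minimum and every probe set on its own. Added after seeing the data were fits of 8 and of 9 arrays, equal array spreads, and identical probe sets counted once. Promoter tables were from RefSeq, and 15 members without an entry there were not searched.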

Additional observations from a re-analysis of the deposited data

Results flagged for a closer look

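For 9 ribosomal protein genes the response to DSS differed between the genotypes by a test of the difference itself (limma, Benjamini-Hochberg adjustment over all genes). In each case the value is DSS minus water in Parp1-/- less DSS minus water in wild type, on the log2 scale, with 3 mice a group. The 8 negative values were Rps4x at -2.40, Rpl6l at -2.30, Rpl10a at -2.23, Rpl4 at -2.17, Rpl28 at -2.16, Rpl23a at -1.85, Rpl41 at -1.65 and Rps6 at -1.46. The positive value was Rps27 at 1.11. In the gene means of all 9, the 3 wild-type water mice lay outside the range of the 8 narrow arrays. They lay below it for the 8 negative values and above it for Rps27. Housekeeping genes were low on the wild-type water arrays and on wild-type DSS 1 too. The part of these arrays in the 9 values was not tested.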

How the results depend on the processing

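Counts of members called are given as higher and lower. With quantile normalization they were 1 and 0 for DSS in wild type, 3 lower between the genotypes on water, and 0 and 0 for the difference of responses. Over all 21314 genes that setting called 207, 2118 and 0 in either direction in these 3 comparisons. As reported, the genes called higher and lower there were 1894 and 887, 3813 and 2912, and 46 and 496. With array weights, whose estimation stopped before its convergence tolerance, they were 22 and 13 for DSS in wild type, 9 lower for DSS in Parp1-/-, 6 and 11 between the genotypes on DSS and 8 and 22 for the difference of responses. Over all genes array weights called 8772, 1457, 6184 and 7675 in either direction in these 4 comparisons. With only the compared arrays DSS in wild type gave 7 and 0, where 641 of all genes were called. An adjusted p under 0.01 left 3 lower for DSS in wild type, 2 lower on water, and 0 and 4 for the difference of responses, and trend and robust options left 0 and 3 there. Every probe set on its own gave 13 lower on water. Of the settings added after seeing the data, 9 arrays gave 9 and 3 for DSS in wild type, 2 and 0 on water, and 0 and 0 for the difference of responses, and equal spreads gave 3 and 0, 0 lower on water, and 0 and 0. Over all genes equal spreads called 151 for DSS in wild type, 2494 on water and 0 for the difference of responses. Why the counts moved was not tested beyond the smaller number of arrays in the fits that use fewer.

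Leaving out 1 array gave 10 to 22 higher and 4 to 9 lower for DSS in wild type, 18 to 27 higher and 3 to 10 lower on water, and 0 to 2 higher and 4 to 19 lower for the difference of responses. The 22 and the 19 came without wild-type DSS 1, where 6865 and 3178 of all genes were called in either direction. The 3 lower on water came without wild-type water 3, Parp1-/- water 1 or Parp1-/- water 2, and Parp1-/- water 3 left 4. For the difference of responses, 4 lower came without Parp1-/- water 2 or 3, and 5 without wild-type DSS 2 or Parp1-/- DSS 3. Its 1 higher, Rps27, was lost without any 1 of the 3 wild-type water arrays, wild-type DSS 2, or any 1 of the 6 Parp1-/- arrays. Only Rps15 between the genotypes on DSS reversed, with array weights, to 0.38 from -0.04 (limma adjusted p = 0.0453), and the cause was not tested. Equal array medians, a 1.5-fold minimum and identical probe sets counted once left every count within 1.5 times. No paired analysis was possible because the labels give no replicate numbers that the groups share.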

Other observations

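The 13 ribosomal protein genes read only by probe sets that also name other genes cannot be credited with a value of their own. The probe sets that name Rpl31 with other genes ran from 0.08 to 2.53 between Parp1-/- and wild type on water, those naming Rpl12 from 0.43 to 2.45, those naming Rpl23 from 0.05 to 2.39 and those naming Rpl10 from -0.51 to 2.30. Those naming Rps21 ran from -1.11 to 0.30 and the single one naming Rps15a stood at -0.52. Single-symbol probe sets of 14 ribosomal protein pseudogenes had a median of -0.56 in the same comparison, with 2 called higher and 5 lower by limma.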
